A study of Mus musculus with 16 samples.

Results

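De novo lipogenesis turns citrate into fatty acids, and 10 genes of this pathway were followed in mouse liver: Acly, Me1, Acaca, Acacb, Fasn, Elovl6, Scd1, Srebf1, Mlxipl and Thrsp. The genes were chosen by their known role, each read from the probe set with the highest mean among those annotated with that gene alone. All 10 were measured, of 19938 genes with such a probe set. RNA came from livers of adult mice and was hybridised to Affymetrix MoGene 1.0 ST arrays, which carry probes along the whole transcript, with 1 array per animal. The 16 animals formed 4 groups of 4: Gli2 heterozygous null mice on a high-fat diet (Het_HFD) or a control diet (Het_control) and wild-type mice on a high-fat diet (WT_HFD) or a control diet (WT_control), each diet given for 12 weeks. Gli2 encodes a transcription factor of the hedgehog pathway, and the labels name no driver that would limit the null allele to a cell type. The genotype label of the wild-type animals names Gli1 where the series text names Gli2, and they are treated here as wild type. The sources used here do not give strain, exact age or diet composition. Levels are log2 values after RMA, which scales the arrays to each other, so a difference of 1 is a 2-fold change relative to the other transcripts.

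In the liver, carbon leaves the mitochondria as citrate, is split to acetyl-CoA, carboxylated to malonyl-CoA and condensed to palmitate, which is then elongated and desaturated before it is built into triglyceride. Insulin drives transcription of these enzymes through SREBP-1c, made from Srebf1, and carbohydrate drives it through ChREBP, made from Mlxipl. Polyunsaturated fat in the diet is known to lower SREBP-1c activity and with it the lipogenic enzymes.

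One array, of animal 2 of the Het_control group (Het_control 2), was unlike the rest. Its correlation over genes with the others was 0.961 to 0.979, against 0.990 to 0.997 among the other 15, and the interquartile range of its levels was 1.95, against 2.40 to 2.60. It was kept, and results that turn on it are given with and without it. The Gli2 probe set averaged 7.53 ± 0.07 in Het_HFD, 7.70 ± 0.30 in Het_control, 7.51 ± 0.08 in WT_HFD and 7.57 ± 0.02 in WT_control (SD, n = 4 each). Heterozygotes minus wild type it differed by 0.13 on control diet (limma adjusted p = 0.447) and by 0.02 on high-fat diet (limma adjusted p = 1). The value on control diet rests on Het_control 2, at 8.14, against 7.50 to 7.59 in the other Het_control animals. Gli1, a hedgehog target gene, was at 8.32 in Het_HFD, 8.44 in Het_control, 8.26 in WT_HFD and 8.41 in WT_control on average, with no call. The Gli2 group averages lay below the median of 8.02 over all probe sets. The Gli2 probes may also lie outside the deleted part, whose position is not known here, so these levels do not check the genotype labels. Hepatocyte markers (6 of 7 measured) were high on every array, with a list mean between 13.48 and 13.62.

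Promoters of 9 of the 10 genes were taken from a table of RefSeq promoters of build GRCm38.p6, 13 windows in all because some genes have several annotated starts. No promoter of Scd1 was used here. Each window runs from 250 bases before to 50 bases after a transcription start. CCAAT, the motif bound by NF-Y, a partner of SREBP, was in 8 of the 13 windows, searched on both strands, against 37.4% of all 32851 promoter windows of the same length. Those windows belong to 7 of the 9 genes, for which no share over all genes is given here. GGGCGG, the core of the GC box bound by Sp1, was in 5 windows, against 35.7% of all windows. The sterol regulatory element TCACNCCAC was in 1 window, of Mlxipl, against 1.24%, and the E-box CACGTG was in 1 window, also of Mlxipl, against 7.15%. TATAAA was in 1 window, of Acacb, against 13.6%. A match describes the letters and not a bound site. The 5 windows below belong to the genes on which the results turn: both acetyl-CoA carboxylases, which had the largest diet differences of the 10, Fasn, the enzyme that makes palmitate, Srebf1, which went the other way in value, and Pnpla3, which fell on high-fat diet and is described with the wider pathway. They are written 5′ to 3′ on the strand of the gene, with CCAAT or its complement ATTGG in capitals. The Acaca window (chr11:84195188-84195487, plus strand) holds neither this nor any other motif searched. It is the only Acaca start used here, and any other start of that gene was not searched. The Acacb window (chr5:114165268-114165567, plus strand) holds 1 CCAAT, the Srebf1 window (chr11:60222532-60222831, minus strand, 1 of 3 annotated starts) holds 1, the Fasn window (chr11:120824498-120824797, minus strand) holds 3, of which the last pair overlap, and the Pnpla3 window (chr15:84167566-84167865, plus strand) holds 1.
Acaca: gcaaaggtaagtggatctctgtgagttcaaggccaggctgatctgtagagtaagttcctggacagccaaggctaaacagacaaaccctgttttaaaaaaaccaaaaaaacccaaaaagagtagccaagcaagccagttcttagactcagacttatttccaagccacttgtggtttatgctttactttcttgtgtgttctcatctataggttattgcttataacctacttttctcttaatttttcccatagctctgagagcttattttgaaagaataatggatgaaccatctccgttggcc
Acacb: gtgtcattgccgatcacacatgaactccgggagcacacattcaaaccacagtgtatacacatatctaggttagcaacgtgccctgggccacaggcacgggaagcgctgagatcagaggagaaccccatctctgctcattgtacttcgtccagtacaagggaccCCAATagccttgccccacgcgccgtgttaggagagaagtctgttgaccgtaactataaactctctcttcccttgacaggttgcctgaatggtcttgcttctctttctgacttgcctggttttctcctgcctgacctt
Fasn: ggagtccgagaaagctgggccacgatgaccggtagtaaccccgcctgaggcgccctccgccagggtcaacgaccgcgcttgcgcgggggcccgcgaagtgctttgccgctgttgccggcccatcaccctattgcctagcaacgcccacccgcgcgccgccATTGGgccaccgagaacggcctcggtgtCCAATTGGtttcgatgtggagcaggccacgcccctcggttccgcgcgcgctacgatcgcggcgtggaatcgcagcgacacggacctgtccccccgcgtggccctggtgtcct
Srebf1: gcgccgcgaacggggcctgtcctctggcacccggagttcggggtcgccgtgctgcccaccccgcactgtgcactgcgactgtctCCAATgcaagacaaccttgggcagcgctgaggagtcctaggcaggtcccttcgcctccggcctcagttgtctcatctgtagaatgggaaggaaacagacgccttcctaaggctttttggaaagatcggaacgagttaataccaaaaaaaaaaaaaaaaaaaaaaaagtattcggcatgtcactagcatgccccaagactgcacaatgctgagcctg
Pnpla3: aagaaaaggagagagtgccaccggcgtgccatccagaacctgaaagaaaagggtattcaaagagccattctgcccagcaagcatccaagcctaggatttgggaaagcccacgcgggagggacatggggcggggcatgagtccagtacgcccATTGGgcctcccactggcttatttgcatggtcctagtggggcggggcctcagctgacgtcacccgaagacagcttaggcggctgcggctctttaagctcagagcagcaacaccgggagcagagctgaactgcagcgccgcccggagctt

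The first comparison asked how 12 weeks of high-fat diet changed lipogenic transcripts in each genotype. Of the 10 genes, 9 were lower in value on high-fat diet in heterozygotes and the same 9 in wild type, and Srebf1 was the exception in both. None passed the test in either genotype or over both genotypes together. That count depends on the fit: with the number in the sample titles as a random block 2 of 10 passed in heterozygotes and 5 over both genotypes, with array weights 1 and 4, and after repeated quantile normalization 0 and 2, all of them lower on high-fat diet. Of all 19938 genes, the block, whose estimated correlation was negative (-0.372), called 6938 in heterozygotes and 3703 over both genotypes. In heterozygotes that is a larger share than 2 of 10. Array weights called 1067 and 2105 of all genes, and repeated quantile normalization 406 and 320. The median high-fat minus control difference of the 10 was -0.16 in heterozygotes, -0.32 in wild type and -0.23 over both, against -0.05, -0.01 and -0.04 for all genes. The share of all genes that was lower in value was 59.5% in heterozygotes, 56% in wild type and 59.6% over both. Calls are at an adjusted p under 0.05 from limma, with all 16 arrays in 1 fit and Benjamini-Hochberg adjustment over the 19938 genes. At that threshold 0 of the 10 were called in heterozygotes, where 2.22% of all genes were (45 to 3446 genes when 1 array is omitted, against 442), 0 of 10 in wild type, where 0.00% were, and 0 of 10 over both genotypes, where 1.86% were. At an unadjusted p under 0.05, 2 of the 10 were lower in heterozygotes, where 17.7% of all genes were, so with all arrays that share is close to the background. The same count was 4 of 10 in wild type, against 2.90% of all genes, and 5 of 10 over both genotypes, against 14.6%. These backgrounds leaned on Het_control 2. In either direction 6298 of all genes were at that p in heterozygotes, and 3730 without that array. The wild-type numbers were 1282 and 2704. The count of the 10 without it is not given here. In wild type, markers of other cells were lower in value too. Lymphocyte markers were lower in 6 of 6, with a median of -0.29, and 5 of 6 were at an unadjusted p under 0.05. Their summed log2 level was 42.2 to 42.8 in WT_HFD and 43.9 to 44.4 in WT_control. They were low in level, with a list mean of 7.09 in WT_HFD and 7.35 in WT_control, against a median of 8.02 over all probe sets. Endothelial markers were lower in 6 of 6, with a median of -0.13, and their summed log2 level was 60.7 to 62.9 in WT_HFD and 62.4 to 63.1 in WT_control. None of these 12 was called, and the part of such cells in the wild-type differences was not tested. The heterozygous direction leaned on Het_control 3: without it the median was -0.04, and Acly (0.18), Me1 (0.002), Elovl6 (0.02) and Thrsp (0.17) were higher in value on high-fat diet. Without Het_control 4 Acly (0.02) and Thrsp (0.12) were, and Thrsp was also without Het_HFD 1 (0.03) or Het_HFD 2 (0.02). In wild type Srebf1 was at -0.02 without WT_HFD 1 and Mlxipl at 0.02 without WT_HFD 2. Over both genotypes none of the 10 changed sign when any 1 array was omitted.

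**Figure D1:**
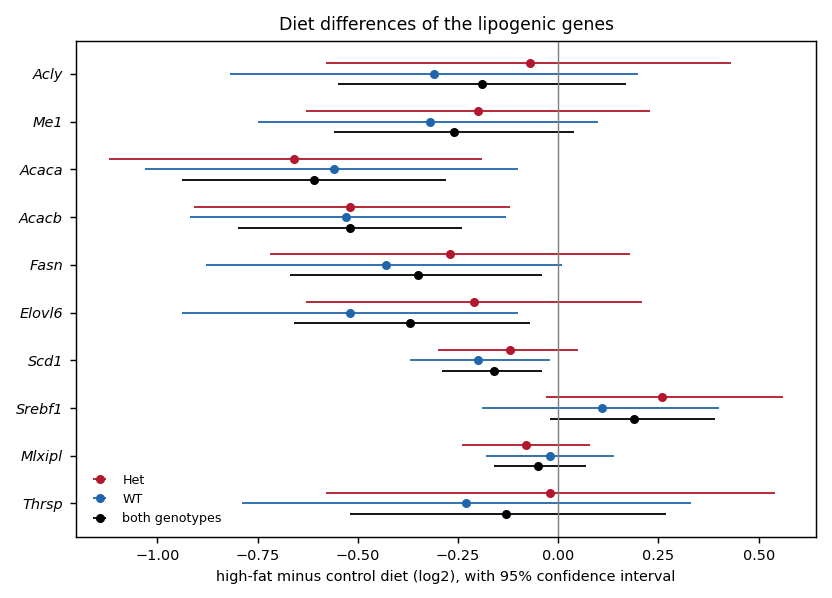
High-fat minus control diet difference (log2, x axis) of each of the 10 genes (rows), with its 95% confidence interval, in heterozygotes (Het), wild type (WT) and over both genotypes. The intervals of Acaca and Acacb lie below 0 in all 3 comparisons, whereas the points for Srebf1 lie above 0.

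Acly, ATP citrate lyase, makes the cytosolic acetyl-CoA that feeds the pathway. It stood at 11.57, 11.67, 11.44 and 11.85 in Het_HFD, against 10.94, 11.45, 12.46 and 11.97 in Het_control. The wild-type animals had 11.77, 11.13, 11.46 and 11.36 in WT_HFD, against 11.93, 11.90, 11.28 and 11.86 in WT_control. The heterozygous control animals spanned a wider range than any other group and enclosed all 4 Het_HFD animals, and WT_control 3 was far below the other wild-type controls. The diet difference was -0.07 (SE 0.24, limma adjusted p = 0.832) in heterozygotes and -0.31 (SE 0.24, limma adjusted p = 0.916) in wild type.

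Me1, the cytosolic malic enzyme, supplies NADPH for fatty acid synthesis. It stood at 12.11, 11.66, 11.56 and 12.19 in Het_HFD, against 11.80, 11.62, 12.68 and 12.21 in Het_control. Its levels were 12.11, 11.76, 11.97 and 12.37 in WT_HFD, against 12.63, 12.40, 12.09 and 12.39 in WT_control. The groups overlapped in both genotypes, and the diet difference over both was -0.26 (SE 0.14, limma adjusted p = 0.227). A second Me1 probe set, not used in the tests, correlated with the first at 0.97 over the arrays and gave -0.10 in heterozygotes and -0.29 in wild type.

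Acaca, acetyl-CoA carboxylase 1, makes the malonyl-CoA used for chain building and had the largest diet difference of the 10. It stood at 11.13, 11.08, 10.96 and 11.25 in Het_HFD, against 11.33, 11.47, 12.68 and 11.56 in Het_control. In wild type the levels were 11.39, 11.16, 11.10 and 11.22 in WT_HFD, against 12.12, 11.87, 11.36 and 11.78 in WT_control. Every Het_HFD animal lay below every Het_control animal, and 7 of the 8 high-fat animals lay below all 8 control animals. Acaca was the only one of the 10 without overlap in heterozygotes, where 7.15% of all genes were lower without overlap. Over both genotypes its level averaged 11.16 on high-fat diet and 11.77 on control diet, a 1.53-fold lower level. That difference was -0.61 (95% confidence interval -0.94 to -0.28, limma adjusted p = 0.0539) and missed the threshold. Without Het_control 2 it was -0.66 and passed (limma adjusted p = 0.0319), and over the omission of each array in turn it ranged from -0.68 to -0.46 with limma adjusted p between 0.0279 and 0.118. The difference was -0.66 (SE 0.22, limma adjusted p = 0.0877) in heterozygotes and -0.56 (SE 0.22, limma adjusted p = 0.646) in wild type. Het_control 3 weighed on the heterozygous value, which was -0.35 without it. The other Acaca probe set gave -0.75 in heterozygotes and -0.58 in wild type.

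Acacb, acetyl-CoA carboxylase 2, makes malonyl-CoA at the mitochondrial surface, where it restrains fatty acid oxidation. It stood at 11.13, 10.62, 10.58 and 11.14 in Het_HFD, against 10.95, 11.14, 11.97 and 11.48 in Het_control. The levels were 11.11, 10.91, 11.18 and 11.02 in WT_HFD, against 11.73, 11.71, 11.22 and 11.66 in WT_control. The wild-type diet groups did not overlap, whereas Het_HFD 1 and 4 lay within the range of the heterozygous controls. Acacb and Scd1 were the 2 genes of the 10 without overlap in wild type, where 5.0% of all genes were lower without overlap. Over both genotypes none of the 10 was without overlap, and 0.251% of all genes were lower in that way. The Acacb difference over both was -0.52 (95% confidence interval -0.80 to -0.24, limma adjusted p = 0.0514), a 1.44-fold lower level on high-fat diet. It passed without Het_control 2, at -0.56 (limma adjusted p = 0.0301). The difference was nearly the same in size in both genotypes, -0.52 (SE 0.19) in heterozygotes and -0.53 (SE 0.19) in wild type, although without Het_control 3 the heterozygous value was -0.32. The interaction was 0.01 (95% confidence interval -0.54 to 0.57).

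Fasn, fatty acid synthase, assembles palmitate from malonyl-CoA. It stood at 12.80, 12.74, 12.62 and 12.89 in Het_HFD, against 12.47, 12.99, 13.61 and 13.07 in Het_control. Wild-type livers were at 13.07, 12.55, 12.56 and 12.23 in WT_HFD, against 13.19, 13.24, 12.48 and 13.23 in WT_control. The diet groups overlapped in both genotypes: Het_control 1 lay below all Het_HFD animals, and WT_control 3 lay below 3 of the 4 WT_HFD animals. The difference was -0.27 (SE 0.21) in heterozygotes, -0.43 (SE 0.21) in wild type and -0.35 (SE 0.15, limma adjusted p = 0.161) over both.

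Elovl6 elongates palmitate to stearate. It stood at 12.36, 12.06, 12.20 and 12.42 in Het_HFD, against 11.93, 12.14, 13.16 and 12.66 in Het_control. In wild type it stood at 12.44, 11.99, 12.09 and 12.07 in WT_HFD, against 12.92, 12.67, 12.39 and 12.69 in WT_control. In wild type WT_HFD 1 alone reached into the control range, and in heterozygotes the 4 high-fat animals all lay inside it. The difference was -0.21 (SE 0.20) in heterozygotes, -0.52 (SE 0.20) in wild type and -0.37 (SE 0.14, limma adjusted p = 0.135) over both.

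Scd1, stearoyl-CoA desaturase, introduces the double bond that yields oleate. It stood at 13.71, 13.70, 13.47 and 13.79 in Het_HFD, against 13.82, 13.61, 13.94 and 13.80 in Het_control. Wild-type animals stood at 13.77, 13.78, 13.73 and 13.52 in WT_HFD, against 13.97, 13.90, 13.85 and 13.89 in WT_control. The wild-type diet groups were apart, but by a narrow margin, and the spread within every group was small. The difference was -0.12 (SE 0.08) in heterozygotes, -0.20 (SE 0.08) in wild type and -0.16 (SE 0.06, limma adjusted p = 0.125) over both. Scd1 stood at 13.47 to 13.97, beside the hepatocyte markers Alb (13.82 to 14.04) and Ttr (13.64 to 13.96). Whether signals this high are compressed on the array was not tested, so its small spread and difference do not show a weak response.

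Of the regulators, Srebf1 encodes the SREBP-1 proteins, and its transcript includes both the SREBP-1a and SREBP-1c forms, which 1 probe set does not tell apart. It stood at 11.79, 12.14, 11.75 and 11.92 in Het_HFD, against 11.39, 11.64, 11.74 and 11.78 in Het_control. The wild-type animals had 12.08, 11.50, 11.58 and 11.59 in WT_HFD, against 11.31, 11.87, 11.42 and 11.71 in WT_control. Of the Het_HFD animals, 3 lay above all heterozygous controls, and the wild-type groups overlapped widely apart from WT_HFD 1. The difference was 0.26 (SE 0.14, limma adjusted p = 0.193) in heterozygotes, 0.11 (SE 0.14, limma adjusted p = 0.947) in wild type and 0.19 (95% confidence interval -0.02 to 0.39) over both. Srebf1 was thus higher in value while 7 of 7 enzymes were lower in value, although neither direction passed the test.

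Mlxipl encodes ChREBP, the carbohydrate-responsive factor. It stood at 12.26, 12.11, 12.01 and 11.93 in Het_HFD, against 12.19, 12.25, 12.10 and 12.07 in Het_control. The levels were 12.05, 11.99, 12.09 and 12.25 in WT_HFD, against 12.10, 12.10, 12.17 and 12.09 in WT_control. Its levels stayed within a narrow band in all 4 groups, and the difference over both genotypes was -0.05 (95% confidence interval -0.16 to 0.07, limma adjusted p = 0.52).

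Thrsp, also called Spot 14, is a thyroid-hormone-responsive protein that promotes lipogenesis. It stood at 12.02, 12.03, 12.24 and 12.35 in Het_HFD, against 11.44, 11.90, 12.77 and 12.61 in Het_control. Wild-type livers were at 12.45, 12.09, 11.74 and 11.33 in WT_HFD, against 11.95, 12.49, 11.74 and 12.35 in WT_control. The groups overlapped throughout, and the difference over both genotypes was -0.13 (SE 0.19, limma adjusted p = 0.626).

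**Figure D2:**
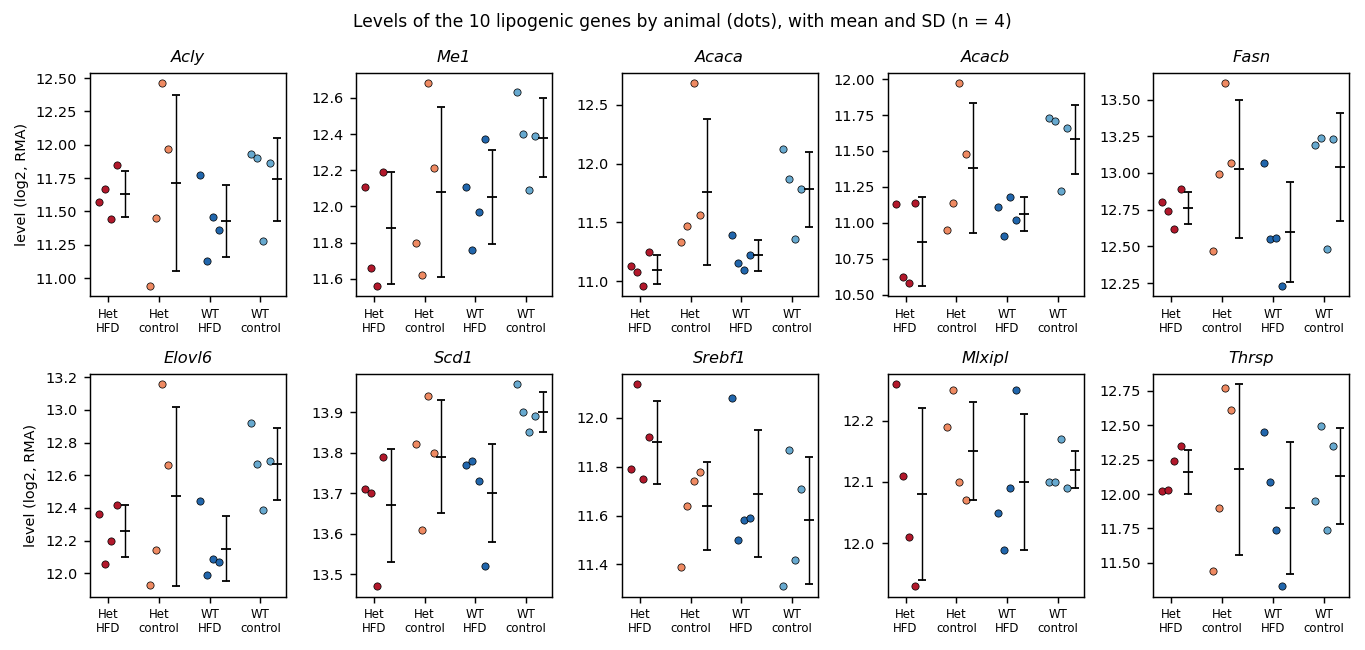
Level (log2 after RMA, y axis, not starting at 0) of each of the 10 genes in every animal (dots), by genotype and diet, with the group mean and SD (n = 4) to the right of the dots. The 4 Het_HFD animals sit between 10.96 and 11.25 for Acaca, below all Het_control animals, and the Het_control group spreads most widely for the enzymes.

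The second comparison asked whether loss of 1 Gli2 copy shifted the same transcripts. On control diet 7 of the 10 were lower in value in heterozygotes, the median difference was -0.03, against 0.04 for all genes, and 0 of 10 were called, as were 0.00% of all genes. At an unadjusted p under 0.05 limma gave 0 of the 10 there, and 15.7% of all genes. That share is 3135 genes, and 1602 were at that p without Het_control 2. The median was -0.24 without Het_control 3 and 0.07 without Het_control 1, so it had no stable direction. The largest were Me1 at -0.30 (SE 0.20), Acacb at -0.20 (SE 0.19) and Elovl6 at -0.20 (SE 0.20). On high-fat diet 5 of the 10 were lower and 5 higher in value, the median was 0.05, against 0.007 for all genes, and 0 of 10 were called, where 0.00502% of all genes were. At an unadjusted p under 0.05 limma again gave 0 of the 10, and 3.57% of all genes. The largest there were Thrsp at 0.26 (SE 0.26), Srebf1 at 0.22 (SE 0.14) and Acly at 0.20 (SE 0.24). No gene of the 10 was without overlap between genotypes on either diet. On control diet 2.10% of all genes were lower and 4.03% higher without overlap, and on high-fat diet 1.57% were lower and 2.18% higher.

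The difference between the diet effects, heterozygotes minus wild type, was tested directly as an interaction. It was above 0 in 8 of the 10, with a median of 0.14, against -0.03 for all genes, and 0 of 10 were called, as were 0.00% of all genes. At an unadjusted p under 0.05 limma gave 0 of the 10, and 8.13% of all genes. The median ranged from -0.02 without Het_control 1 to 0.27 without Het_control 3, so its direction rests on single animals. Elovl6 had the largest value, 0.31 (95% confidence interval -0.28 to 0.90, limma adjusted p = 0.712). The intervals of Acaca (-0.75 to 0.56) and Fasn (-0.47 to 0.80) also spanned 0, and they reach values as large as the diet differences themselves. With 4 animals per group, a genotype dependence of that size was neither detected nor bounded away.

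The spread between animals of 1 group was large for these genes. The median SD of the 10 was 0.16 in Het_HFD, 0.47 in Het_control, 0.23 in WT_HFD and 0.25 in WT_control, against 0.09, 0.18, 0.09 and 0.08 for all genes in the same order. Much of it was shared between genes, so that an animal high in 1 enzyme was high in others. Het_control 3 was the highest of all 16 animals in 7 of the 10, with a mean deviation of 0.58 from the gene means, while Het_control 1 of the same group had the lowest mean deviation of all 16, -0.31. Among wild-type controls, WT_control 3 had a mean deviation of -0.13, against 0.23 to 0.28 in the other 3. The labels give neither the feeding state nor the time of day at killing, and the part of these in the spread was not tested. Hepatocyte marker means differed little among the same animals, from 13.54 to 13.60 in Het_HFD, 13.48 to 13.61 in Het_control, 13.56 to 13.60 in WT_HFD and 13.52 to 13.62 in WT_control. Even Het_control 2, the array unlike the rest, stood only slightly lower, at 13.48. These means therefore do not show whether hepatocyte content was alike in the animals.

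**Figure D3:**
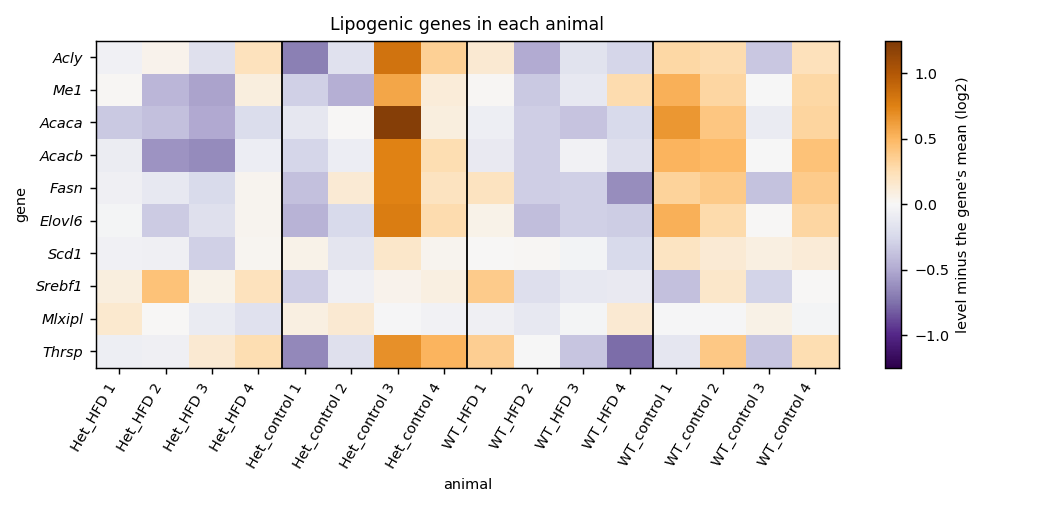
Deviation of each level from the mean of that gene over 16 animals (log2, colour) for the 10 genes (rows) in every animal (columns), with black lines between groups. Het_control 3 is brown in the rows of the enzymes and Thrsp, and Het_control 1, of the same group, is purple in most of the same rows.

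The correlation between the 10 genes across the 16 animals was computed for all 45 pairs, with 2-sided permutation tests of 100000 resamples and Benjamini-Hochberg adjustment over the pairs. Of the 45, 25 passed. The share of pairs that pass among other genes was not computed, so these counts have no background beside them. The 21 pairs among the 7 enzymes correlated at 0.47 to 0.90 with a median of 0.77, and 20 of them passed. The exception was Acly with Scd1, at r = 0.47 (permutation p = 0.069, adjusted p = 0.111) and rho = 0.52 (permutation p = 0.0406, adjusted p = 0.0716). The part of the high signal of Scd1 in its correlations was not tested. Acaca and Acacb had the highest value, with r = 0.90 (permutation p = 1e-05, the smallest that the resamples can give, adjusted p = 0.00018) and rho = 0.85 (permutation p = 8e-05, adjusted p = 0.0009), and r = 0.89 without the 2 animals farthest from the median of Acaca. Acly and Elovl6 followed with r = 0.89 (permutation p = 2e-05, adjusted p = 0.00018), rho = 0.86 (permutation p = 5e-05, adjusted p = 0.0009) and r = 0.80 without the 2 farthest animals. Because group means enter these values, the deviations from the group means were correlated too. Within groups the enzyme pairs had r between 0.45 and 0.93, median 0.81, and 14 of the 21 passed.

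The correlations of the regulators with the enzymes were not tested against those among the enzymes, and are given as values. Thrsp with the enzymes had r between 0.32 and 0.81, and 3 of 7 pairs passed. Its closest enzyme was Fasn, with r = 0.81 (permutation p = 0.0002, adjusted p = 0.000818), rho = 0.79 (permutation p = 0.00038, adjusted p = 0.00244) and r = 0.68 without the 2 farthest animals. Srebf1 with the enzymes had r between -0.19 and 0.43 and none of 7 pairs passed. The highest was Acly, with r = 0.43 (permutation p = 0.0953, adjusted p = 0.148), rho = 0.43 (permutation p = 0.0972, adjusted p = 0.162) and r = 0.40 without the 2 farthest animals. Srebf1 did pass with Thrsp, at r = 0.55 (permutation p = 0.0272, adjusted p = 0.049), rho = 0.61 (permutation p = 0.0133, adjusted p = 0.0273) and r = 0.70 without the 2 farthest animals, but not without Het_control 2 (r = 0.55, permutation test, adjusted p = 0.0592). From deviations from the group means this pair passed, at r = 0.66 (permutation test, adjusted p = 0.0291). Within groups the 7 pairs of Srebf1 with an enzyme had r between 0.18 and 0.62, and 1 passed. Mlxipl with the enzymes had r between -0.27 and 0.02 over all animals and between -0.44 and -0.07 within groups, and none passed. Mlxipl with Thrsp had r = -0.56 (permutation p = 0.0248, adjusted p = 0.0465) and rho = -0.52 (permutation p = 0.0414, adjusted p = 0.0716), and r = -0.61 (permutation test, adjusted p = 0.0514) without the 2 farthest animals. It no longer passed without them or without Het_control 2 (r = -0.56, permutation test, adjusted p = 0.0538), although r was no weaker. From deviations from the group means this pair passed, at r = -0.65 (permutation test, adjusted p = 0.0123).

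**Figure D4:**
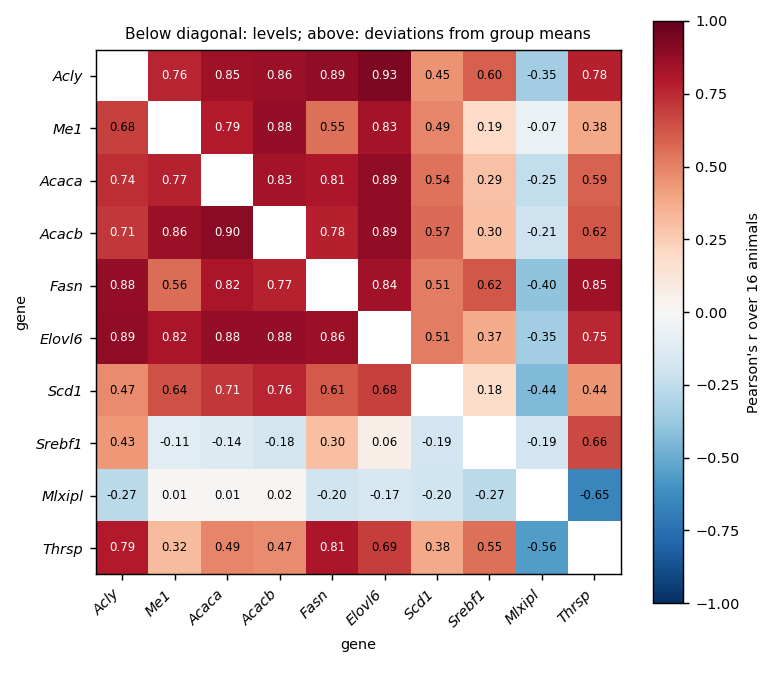
Pearson's r between the levels of the 10 genes over 16 animals (colour and number), from the levels below the diagonal and from deviations from the group means above it. The block of 7 enzymes is red on both sides, the Mlxipl row is pale to blue, and Srebf1 turns redder above the diagonal than below it.

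The genes whose pattern over the 16 animals was most like the mean of the 10, each gene scaled to the same spread, were Chrna4 (r = 0.912), Pklr (r = 0.872), Pnpla3 (r = 0.857), Acss2 (r = 0.855) and Myo10 (r = 0.832). Chrna4, a nicotinic acetylcholine receptor subunit, was also the nearest gene to Acaca (r = 0.928), Acacb (r = 0.958), Fasn (r = 0.867) and Elovl6 (r = 0.890). Dlat, a subunit of pyruvate dehydrogenase, was nearest to Me1 (r = 0.896), Lacc1 to Acly (r = 0.825), Gm5785 to Scd1 (r = 0.930), Nudt22 to Srebf1 (r = 0.851), Spred1 to Mlxipl (r = 0.839) and Mettl1 to Thrsp (r = 0.859). These were picked as the highest of 19928 genes, so the values are descriptions. Chrna4 fell on high-fat diet over both genotypes, by 1.28 on the log2 scale (SE 0.28, limma adjusted p = 0.0288).

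Around the 10 genes, 4 lists of the wider pathway were counted. In the diet contrast over both genotypes, 0 of 11 measured genes of substrate and NADPH supply and 0 of 10 of glycolysis and ChREBP-responsive genes were called, 1 of 18 of desaturation, elongation and esterification fell, and 1 of 18 upstream regulators rose while 1 fell. The median differences of the 4 lists were -0.003, -0.04, -0.03 and 0.05 in that order, near the -0.04 of all genes. Among all genes 1.35% rose and 0.512% fell in that contrast. In heterozygotes 0 of 11 and 0 of 10 genes of the first pair of lists were called, 1 of 18 rose and 1 fell in the third, and 2 of 18 regulators rose and 1 fell, where 1.50% of all genes rose and 0.712% fell. In wild type limma called 0 of the 57, and 5 were at an unadjusted p under 0.05, where 6.43% of all genes were.

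Pnpla3, a lipid-droplet acyltransferase and lipase whose transcription is a known target of SREBP-1c, was the gene of these lists with the largest change. It stood at 9.15, 9.11, 8.84 and 9.17 in Het_HFD, against 9.43, 9.92, 10.69 and 10.06 in Het_control. In wild type it stood at 9.42, 9.12, 8.84 and 8.80 in WT_HFD, against 9.98, 10.43, 9.58 and 10.38 in WT_control. All 8 high-fat animals lay at or below 9.42 and all 8 control animals at or above 9.43, a narrow gap. Over both genotypes 0.251% of all genes were lower without overlap. It fell 2-fold over both genotypes, by 1.0 on the log2 scale (SE 0.16, limma adjusted p = 0.00906), and passed in all 16 fits that omit 1 array. It fell by 0.96 (SE 0.22, limma adjusted p = 0.0417) in heterozygotes, where it passed in 6 of the 16 fits, and the wild-type difference was -1.05 (SE 0.22, limma adjusted p = 0.206).

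Scap, which escorts SREBP from the endoplasmic reticulum to the Golgi for cleavage, stood at 10.88, 10.84, 10.83 and 10.83 in Het_HFD, against 11.17, 11.21, 11.32 and 11.05 in Het_control. Wild-type animals stood at 10.99, 11.03, 10.98 and 10.96 in WT_HFD, against 11.33, 11.12, 10.98 and 11.13 in WT_control. The heterozygous groups did not overlap, where 7.15% of all genes were lower without overlap, and the wild-type groups met at WT_control 3. Scap fell by 0.34 in heterozygotes (SE 0.07, limma adjusted p = 0.0352) and by 0.25 over both genotypes (SE 0.05, limma adjusted p = 0.0239).

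Nr1h3, the liver X receptor alpha that drives Srebf1 transcription, rose by 0.38 in heterozygotes (SE 0.08, limma adjusted p = 0.0352) and by 0.23 over both genotypes (SE 0.06, limma adjusted p = 0.048). Its levels were 10.92 to 11.14 in Het_HFD, 10.42 to 10.78 in Het_control, 10.79 to 10.95 in WT_HFD and 10.71 to 10.91 in WT_control. Pparg, a nuclear receptor that promotes lipid storage, rose by 0.60 in heterozygotes (SE 0.12, limma adjusted p = 0.0257), with levels of 10.17 to 10.43 in Het_HFD and 9.32 to 10.02 in Het_control, and the wild-type difference was 0.02 (SE 0.12). Agpat2, which makes phosphatidic acid on the way to triglyceride, rose by 0.41 in heterozygotes (SE 0.10, limma adjusted p = 0.0453), with levels of 12.27 to 12.42 in Het_HFD and 11.66 to 12.22 in Het_control, and the wild-type difference was -0.06 (SE 0.10). The interaction was 0.58 for Pparg (limma adjusted p = 0.387), 0.46 for Agpat2 (limma adjusted p = 0.398) and 0.30 for Nr1h3 (limma adjusted p = 0.515), so no difference between genotypes passed the test.

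Those heterozygous calls depend on the fit. All 5 were lost when only the 8 heterozygous arrays were fitted (limma adjusted p between 0.152 and 0.215), and over the omission of each array Agpat2 passed in 2 of 16 fits, Pnpla3 in 6, Scap in 10, Pparg in 11 and Nr1h3 in 13. Without Het_control 2 the Agpat2 difference was 0.30 (limma adjusted p = 0.0684) and the Pnpla3 difference -0.99 (limma adjusted p = 0.0621). Over both genotypes Nr1h3 passed in 2 of 16 and Scap in 8. Markers of other cells moved in the same contrast. Of the macrophage markers 5 of 8 rose, where 1.50% of all genes did, with a median of 0.58, and their summed log2 level was 84.3 to 87.7 in Het_HFD, 80.0 to 83.7 in Het_control, 81.3 to 85.4 in WT_HFD and 82.7 to 84.4 in WT_control. Of the stellate cell markers 1 of 6 rose, Lrat by 0.96 (limma adjusted p = 0.0465). That list was split in direction, with 4 higher and 2 lower in value and a median of 0.05. The lower ones were Col1a1 (-0.23, limma adjusted p = 0.101) and Col3a1 (-0.16, limma adjusted p = 0.135). With no call, endothelial markers were higher in value in 5 of 6 (median 0.16), bile duct markers lower in 5 of 5 (median -0.23) and exocrine pancreas markers lower in 5 of 5 (median -0.13). Het_control 2 was outermost of its group in each of these lists. Its list mean was 9.91 for endothelial, against 10.09 to 10.43 in the other Het_control animals. For bile duct it was 8.24, against 8.04 to 8.10, and for exocrine pancreas 7.82, against 7.50 to 7.54. The exocrine pancreas means were below the median of 8.02 over all probe sets. In whole liver, more cells of a type and more RNA per cell cannot be told apart, and the part of these cells in the heterozygous differences was not tested.

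**Figure D5:**
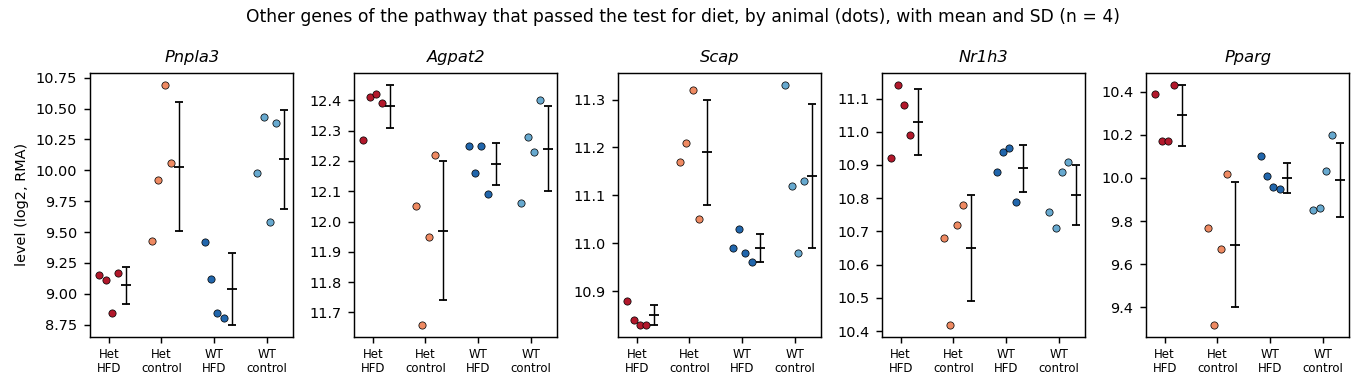
Level (log2 after RMA, y axis, not starting at 0) of the 5 wider-pathway genes called for diet in every animal (dots), by genotype and diet, with the group mean and SD (n = 4). Pnpla3 is lower in all 8 high-fat animals than in the 8 control animals, whereas Pparg and Agpat2 differ by diet in heterozygotes and overlap in wild type.

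The other genes named by the rule, the 2 with the smallest p of each list, did not pass. Over both genotypes they were Idh1 (0.21), Acss2 (-0.32), Txnip (-0.39), Pklr (-0.20) and Scd4 (-0.24), with limma adjusted p between 0.0628 and 0.196. Txnip and Pklr, both known ChREBP targets, stood lower in value on high-fat diet in heterozygotes too, at -0.50 and -0.18, beside Idh1 at 0.29 and Acss1 at -0.09. Of the 10 measured glycolysis and ChREBP-responsive genes, 7 were lower and 3 higher in value there, with a median of -0.02. In wild type the genes named by the rule were Taldo1 (0.20), Acss2 (-0.39), Pklr (-0.22), G6pc (-0.22), Pnpla3, Scd2 (-0.58), Scap (-0.15) and Insig2 (0.29). For heterozygotes minus wild type on control diet they were Taldo1 (0.24), Cs (-0.20), Gpd1 (-0.31), Txnip (-0.26), Scd2 (-0.69), Elovl1 (-0.34), Pparg (-0.29) and Nr1h3 (-0.16). On high-fat diet they were Pcx (-0.08), Pgls (0.13), G6pc (0.37), Txnip (-0.48), Agpat2 (0.19), Acsl5 (-0.16), Mid1ip1 (0.32) and Pparg (0.29). In the interaction they were Taldo1 (-0.22), Pgd (0.32), G6pc (0.27), Slc2a2 (-0.12), Agpat2, Scd2 (0.70), Pparg and Nr1h3. The values in brackets are log2 differences.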

How the data were processed

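Liver RNA of 16 mice was measured on 1 array each. The authors deposited log2 levels of probe sets. Per the submitters' processing notes, RMA and Affymetrix Expression Console produced them. The sources used here give no version, scan date or genome build for the array. Of 35556 probe sets, 21789 carry 1 gene symbol, 1621 several and 12146 none; the last 2 kinds were left out. Symbols were updated through the Entrez number with RefSeq (GRCm38.p6), which matched 19856 of 19938 genes. The probe set with the highest mean stood for each of the 999 genes with several.

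All arrays entered 1 limma 3.58.1 fit (R 4.3.3, lmFit and eBayes) with a mean per group, and the scripts were tested on simulated data. The 6 contrasts were adjusted over all genes. Replicate numbers follow record order and pair nothing. The members, lists, named-gene rule and alternatives were chosen with earlier results of these data known, and the 5 called pathway genes were put through the alternatives after seeing the data. Named genes were the 10, the 2 of each list with the smallest p, every called list gene, the 5 genes most like the mean of the 10, the nearest gene to each, Gli2 and Gli1. Of the list genes, 6 are not analysed here. Animals are treated as separate samples. The number of arrays limits the precision.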

Additional observations from a re-analysis of the deposited data

Results flagged for a closer look

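Within groups of 4, 6 of the 40 sets of levels held an animal far from the other 3 by Dixon's test. Chance alone gives this in about 1 of 20 separate sets. The 40 sets share animals and correlated genes, so their count cannot be set against that rate. In WT_control, animal 3 accounted for 4 of them. Its Acly level was 11.28, against 11.86 to 11.93 in the others, its Acacb level 11.22, against 11.66 to 11.73, and its Fasn level 12.48, against 13.19 to 13.24. Its Mlxipl level was on the other side, 12.17, against 12.09 to 12.10. In Het_control, animal 3 had an Acaca level of 12.68, against 11.33 to 11.56. In WT_HFD, animal 1 had a Srebf1 level of 12.08, against 11.50 to 11.59.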

How the results depend on the processing

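No paired analysis was possible because no number in the sample titles occurs in both genotypes and only 1 occurs in both diets. The count of the 10 genes called stayed at 0 under every alternative in wild-type diet, both genotype contrasts and the interaction. In heterozygous diet it was 1 with array weights (Acaca), 2 with a random block for the number in the sample titles (Acaca and Acacb; estimated correlation -0.372) and 0 to 1 over the omission of each array. Over both genotypes it was 2 after repeated quantile normalization, 4 with array weights, 5 with the random block, 2 over the 11289 genes at or above the median level, and 0 to 2 over the omission of each array. The 2 were Acaca and Acacb without WT_control 3, Het_control 1, 2 or 4. The cause was not tested.

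Of 1420 differences of the 10 genes under an alternative, 66 changed sign, none past the threshold and none over both genotypes. In wild-type diet Mlxipl was 0.009 (block). In heterozygotes minus wild type on control diet, Acly was 0.03, 0.05 and 0.008, Acaca 0.04, 0.11 and 0.03, and Fasn 0.06, 0.0002 and 0.01 (quantile, weights, block), and on high-fat diet Mlxipl was 0.0004 (quantile) and 0.007 (weights). In the interaction Acacb was -0.03, -0.02 and -0.09 (quantile, weights, block), Thrsp -0.05 (weights) and Me1 -0.006 (block). Over the omission of each array, the ranges that crossed 0 were as follows. Wild-type diet had Srebf1 at -0.02 to 0.20 and Mlxipl at -0.07 to 0.02. Heterozygous diet had Acly at -0.33 to 0.18, Me1 at -0.35 to 0.002, Elovl6 at -0.39 to 0.02 and Thrsp at -0.27 to 0.17. Genotype on control diet had Acly at -0.29 to 0.22, Acaca at -0.33 to 0.12, Fasn at -0.19 to 0.19, Srebf1 at -0.03 to 0.16 and Thrsp at -0.15 to 0.30. Genotype on high-fat diet had Scd1 at -0.09 to 0.03 and Mlxipl at -0.08 to 0.03. The interaction had Acly at -0.02 to 0.49, Me1 at -0.03 to 0.33, Acaca at -0.24 to 0.22, Acacb at -0.13 to 0.20, Fasn at -0.03 to 0.35 and Thrsp at -0.04 to 0.41.

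Counts over all genes moved more. In heterozygous diet 442 were called, against 1067 with weights, 6938 with the block and 7 with only the arrays of the contrast, and 45 (without Het_HFD 3) to 3446 (without Het_control 4) over the omission of each array. Over both genotypes 371 were called, against 2105 with weights and 3703 with the block, and 104 (without Het_HFD 4) to 1754 (without Het_control 4) over the omission of each array. In wild-type diet limma called 0 (1282 at an unadjusted p under 0.05), against 219 with weights, 40 with the block and 6 with only its arrays. The correlated pairs numbered 25, against 23 without Het_control 2, 18 without the 2 farthest animals and 20 from deviations.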
